A study of Mus musculus with 8 samples.

Results

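The genes of sterol and fatty acid synthesis under the sterol regulatory element binding proteins (SREBPs) were followed across 2 mouse cell lines grown alone or together. Of 32 genes named by symbol for this set, 31 were measured on the arrays, among 19938 genes compared in all. They comprise 17 of 18 listed enzymes of sterol synthesis, 5 of 5 regulators and sterol carriers (Srebf1, Srebf2, Insig1, Insig2 and Stard4) and 9 of 9 listed enzymes of fatty acid synthesis and desaturation. Acat2, the remaining sterol enzyme, had no probe set annotated with its symbol alone and is not analysed here. The genes were listed by their place in the pathway, with earlier results of these data known. Each was read from 1 probe set, the brightest by mean, and the arms are described separately.

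The series holds 8 arrays in 4 groups of 2, from MBA-15, a pre-osteoblastic stromal line, and DA3, a line from a mammary adenocarcinoma, to study how bone stromal and breast carcinoma cells interact. The groups are DA3 alone, DA3 co-culture, MBA-15 alone and MBA-15 co-culture, with DA3 seeded on an MBA-15 monolayer in the co-culture. Cells were parted by magnetic beads against EpCAM (CD326), DA3 being the bound and MBA-15 the unbound fraction. All 8 descriptions give 24 h, and all groups grew in the same serum-containing medium. No genetic change and no added agent is stated for any group, and each line is a single established line. Whether both arrays of a group stem from separate cultures is not stated in the labels. The p-values therefore rest on array-to-array spread that could be technical, and so few arrays limit the precision.

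SREBPs are transcription factors made as membrane proteins of the endoplasmic reticulum. When membrane sterol is low, the escort protein Scap carries them to the Golgi, where proteases free the active part, which enters the nucleus and switches on the genes of sterol and fatty acid synthesis. When sterol is high, the Insig proteins hold the complex back in the endoplasmic reticulum. Srebf2 is best known for driving sterol synthesis and Srebf1 for driving fatty acid synthesis. Growing cells use both pathways to make membranes.

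The labels were checked first against markers of each line. The log2 level of Epcam was 5.58 and 5.19 in MBA-15 co-culture but 8.45 and 9.25 where the label says MBA-15 alone, near the 9.57 and 9.46 of DA3 alone and the 9.29 and 9.38 of DA3 co-culture. Thus the arrays labelled MBA-15 alone went against their label in Epcam, and they are named throughout by that label. The descriptions of the arrays labelled alone hold the word mix, whose meaning is not given. For the 12 epithelial markers the mean log2 level was 8.28 and 8.75 on these arrays. It was 5.21 and 5.08 for MBA-15 co-culture, 9.50 and 9.42 for DA3 alone, and 8.95 and 9.39 for DA3 co-culture. The 12 stromal markers averaged 8.06 and 7.93, 8.59 and 8.27, 5.35 and 5.40, and 6.51 and 6.02 in that order of groups. In stromal markers the arrays labelled MBA-15 alone thus lay near MBA-15 co-culture and went with their label. Of 7 measured adipocyte markers, 6 or 7 lay below the median of each array, and of 8 leukocyte markers 6 or 7. Because the arrays labelled MBA-15 alone carried epithelial transcripts, the 2 lines were compared through the MBA-15 co-culture arrays.

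**Figure D1:**
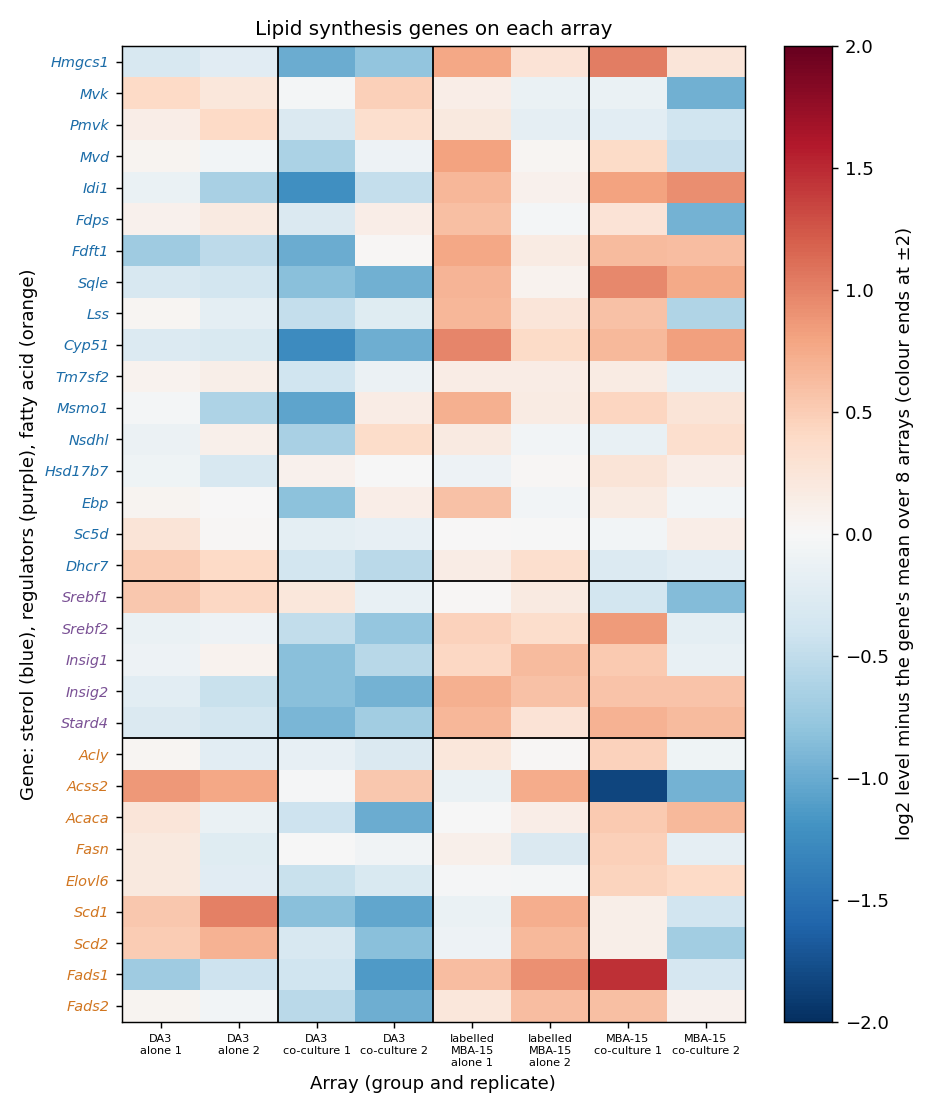
Each row is a gene and each column an array, grouped by culture. Colour gives the log2 level minus the mean of that gene over the 8 arrays, from blue (lower) to red (higher). The DA3 co-culture columns are mostly blue, and Sqle, Cyp51, Insig2 and Stard4 are blue on all 4 DA3 arrays and red on the other 4.

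DA3 alone and MBA-15 co-culture differed in 8 of the 31 genes. Insig2, Sqle, Stard4, Cyp51 and Idi1 were lower in DA3, with log2 differences from -1.26 to -0.90. Acss2, Srebf1 and Dhcr7 were higher in DA3, with differences from 0.70 to 2.21. The 8 passing genes thus divided within the pathway, with members on both sides in the sterol arm and among the regulators. Over all genes tested, 6.47% passed as higher and 6.08% as lower in DA3, and over the members 9.68% and 16.1%. Among the 10469 genes whose mean log2 level lay within the range of the members, 4.56 to 10.81, the shares were 11.3% and 9.27%. The culture type differs along with the line in this comparison, and in bulk RNA fewer cells of a type and less RNA per cell cannot be told apart.

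Of the measured sterol enzymes the earliest in the pathway is Hmgcs1, which makes hydroxymethylglutaryl-CoA. Its log2 level was 7.15 and 7.23 on the DA3 alone arrays and 8.49 and 7.71 on the MBA-15 co-culture arrays, a difference of -0.91 (SE 0.28, adjusted p = 0.0943) that did not pass. Mvk, the kinase of mevalonate, stood at 6.09 and 5.92 in DA3 alone, above the 5.56 and 4.74 of MBA-15 co-culture. Its difference ran the other way, 0.86 (SE 0.30, adjusted p = 0.132), and did not pass either. Idi1 interconverts the isoprene units that are joined into sterols. The DA3 alone arrays read 7.07 and 6.56 and the MBA-15 co-culture arrays 8.01 and 8.14, 2.39-fold lower in DA3 (log2 difference -1.26 (SE 0.32, adjusted p = 0.0491)). Fdps, which joins isoprene units into farnesyl diphosphate, read 7.60 and 7.69 and 7.79 and 6.57, and the arrays overlapped (0.47 (SE 0.41, adjusted p = 0.622)).

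Fdft1 makes squalene, and Sqle oxidises it in what is known as a rate-limiting step. Fdft1 read 6.89 and 7.07 in DA3 alone and 8.23 and 8.21 in MBA-15 co-culture, a gap of -1.24 (SE 0.35, adjusted p = 0.0673) that missed the threshold although the arrays did not overlap. Sqle was at 7.35 and 7.31 in DA3 alone and 8.65 and 8.45 in MBA-15 co-culture. Its 2.32-fold lower level in DA3 passed (log2 difference -1.21 (SE 0.21, adjusted p = 0.0125)). The SE of a gene is pooled over the 4 groups, and that of Fdft1 includes its DA3 co-culture arrays, which had an SD of 0.71 where those of Sqle had 0.09. Cyp51, the lanosterol demethylase, read 6.75 and 6.72 in DA3 alone and 7.66 and 7.85 in MBA-15 co-culture, and it was 2.03-fold lower in DA3 (-1.02 (SE 0.22, adjusted p = 0.0267)). Dhcr7 acts at the end of the pathway and forms cholesterol itself. It alone among the sterol enzymes passed as higher in DA3, the arrays of DA3 alone reading 6.78 and 6.68 and those of MBA-15 co-culture 5.997 and 6.07 (log2 difference 0.70 (SE 0.13, adjusted p = 0.0178)).

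The 9 other sterol enzymes (Pmvk, Mvd, Lss, Tm7sf2, Msmo1, Nsdhl, Hsd17b7, Ebp and Sc5d) had differences from -0.68 for Msmo1 to 0.57 for Pmvk, and none passed. The median difference of the 17 sterol enzymes was -0.07, beside 0.00 over all genes (-0.0044) and 0.11 over the genes at the level of the members. Differences of 10 of the 17 lay below 0 and of 7 above. The median was -0.38 without array 2 of MBA-15 co-culture, with 12 below 0, and 0.01 without array 1, with 8 below 0.

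The promoters of 4 genes that passed as lower in DA3 in at least 1 of the comparisons of the lines, and of Acss2, which was higher, are shown to let the shared and unshared letters be seen. They are the 250 bases before the start site in the RefSeq annotation of GRCm38.p6, on the strand of the gene, and Insig2 is shown by the most upstream of its 3 start sites. Capitals mark TCACNCCAC, a sterol regulatory element type, and CCAAT, the box bound by NF-Y, on either strand. CACGTG, the E-box, was searched too and occurs in none of these stretches.
Hmgcs1, chr13:119690101-119690350, plus strand: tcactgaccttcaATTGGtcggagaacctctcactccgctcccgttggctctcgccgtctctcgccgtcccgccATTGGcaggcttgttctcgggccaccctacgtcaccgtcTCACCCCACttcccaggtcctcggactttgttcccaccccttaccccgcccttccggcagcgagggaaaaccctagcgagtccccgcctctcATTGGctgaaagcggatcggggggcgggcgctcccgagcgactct
Idi1, chr13:8885356-8885605, plus strand: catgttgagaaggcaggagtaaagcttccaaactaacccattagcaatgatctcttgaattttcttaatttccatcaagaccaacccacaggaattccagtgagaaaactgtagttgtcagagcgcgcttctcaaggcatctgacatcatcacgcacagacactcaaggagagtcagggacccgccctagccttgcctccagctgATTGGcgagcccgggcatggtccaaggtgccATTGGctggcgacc
Cyp51, chr5:4104698-4104947, minus strand: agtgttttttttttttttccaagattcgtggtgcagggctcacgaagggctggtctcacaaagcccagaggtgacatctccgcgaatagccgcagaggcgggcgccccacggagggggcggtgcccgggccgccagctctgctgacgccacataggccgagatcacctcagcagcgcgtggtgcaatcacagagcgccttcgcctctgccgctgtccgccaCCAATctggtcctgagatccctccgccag
Insig2, chr1:121332590-121332839, minus strand: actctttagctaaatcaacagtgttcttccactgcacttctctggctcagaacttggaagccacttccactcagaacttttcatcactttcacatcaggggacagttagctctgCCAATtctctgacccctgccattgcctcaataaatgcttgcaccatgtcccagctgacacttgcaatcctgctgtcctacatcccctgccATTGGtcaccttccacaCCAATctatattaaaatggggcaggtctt
Acss2, chr2:155517793-155518042, plus strand: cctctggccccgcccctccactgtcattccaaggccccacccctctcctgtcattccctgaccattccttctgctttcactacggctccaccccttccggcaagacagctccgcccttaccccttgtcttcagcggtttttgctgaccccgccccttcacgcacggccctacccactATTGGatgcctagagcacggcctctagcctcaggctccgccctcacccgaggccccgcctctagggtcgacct

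Hmgcs1 carries 1 match to TCACNCCAC and 3 to CCAAT in these bases. Insig2 also has 3 CCAAT matches, Idi1 has 2, and Cyp51 and Acss2 have 1 each. Acss2 holds 4 matches to GGGCGG, the Sp1 box, against 2 in Hmgcs1, 1 each in Idi1 and Cyp51, and 0 in the stretch of Insig2 shown. The windows at the other start sites of Insig2 do hold this box. Windows of 300 bases, 250 before and 50 after the start, were given for 24 of the 31 measured genes and searched on both strands, with CACGTG, its own reverse complement, counted once. CCAAT occurred in 21 of the 24 (87.5%), against 41.1% of 27025 genes with a promoter window, and GGGCGG in 20 (83.3%), against 38.2%. CACGTG occurred in Dhcr7, Hsd17b7, Insig1 and Sc5d (16.7%, against 8.09%), and TCACNCCAC in Hmgcs1 only (4.17%, against 1.44%). No 2 of these motifs overlap by their letters in the stretches shown. These are matches of letters and not sites of binding.

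Among the regulators, Srebf1 and Srebf2 encode the SREBPs themselves. Srebf1 read 7.52 and 7.39 in DA3 alone and 6.61 and 6.12 in MBA-15 co-culture, 2.13-fold higher in DA3 (log2 difference 1.09 (SE 0.21, adjusted p = 0.0186)). Srebf2 read 7.69 and 7.72 and 8.68 and 7.62, and its MBA-15 arrays lay so far apart that they enclosed the DA3 arrays (-0.44 (SE 0.32, adjusted p = 0.518)). Insig1 and Insig2, the retention proteins, did not show the same picture. Insig1 stood at 8.70 and 8.88 in DA3 alone and 9.34 and 8.67 in MBA-15 co-culture and overlapped (-0.21 (SE 0.24, adjusted p = 0.721)). Insig2 stood at 7.66 and 7.42 against 8.44 and 8.44, 1.86-fold lower in DA3 with the lowest adjusted p of all members here (-0.90 (SE 0.14, adjusted p = 0.0072)). Stard4, a soluble carrier that moves sterol between membranes, read 5.89 and 5.81 in DA3 alone and 6.87 and 6.80 in MBA-15 co-culture, 1.98-fold lower in DA3 (-0.98 (SE 0.17, adjusted p = 0.0119)).

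In the fatty acid arm, Acss2 turns acetate into acetyl-CoA, the building block of fatty acids and sterols. It showed the largest difference of the set, with log2 levels of 7.19 and 7.09 in DA3 alone and 4.48 and 5.38 in MBA-15 co-culture, 4.63-fold higher in DA3 (log2 difference 2.21 (SE 0.39, adjusted p = 0.0138)). Its arrays in MBA-15 co-culture lay apart, but less so than either lay from DA3, and array 1 read below the median of all its probe sets, 4.63, so that the size of this difference is uncertain. No other fatty acid enzyme passed. Fads1, a front-end desaturase of polyunsaturated fatty acids, read 7.22 and 7.52 and 9.39 and 7.59, a difference of -1.12 (SE 0.56, adjusted p = 0.302), and array 1 of MBA-15 co-culture stood 1.80 above array 2. Scd1 and Scd2 place the double bond in saturated fatty acids. Scd1 read 9.17 and 9.64 in DA3 alone and 8.75 and 8.25 in MBA-15 co-culture (0.91 (SE 0.33, adjusted p = 0.141)), and Scd2 11.32 and 11.50 and 10.93 and 10.12 (0.89 (SE 0.36, adjusted p = 0.188)). For both, the DA3 arrays lay above the MBA-15 arrays without passing. The arm had a median difference of -0.27, and the regulators one of -0.44. Without array 1 of MBA-15 co-culture these were -0.0047 and 0.09.

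**Figure D2:**
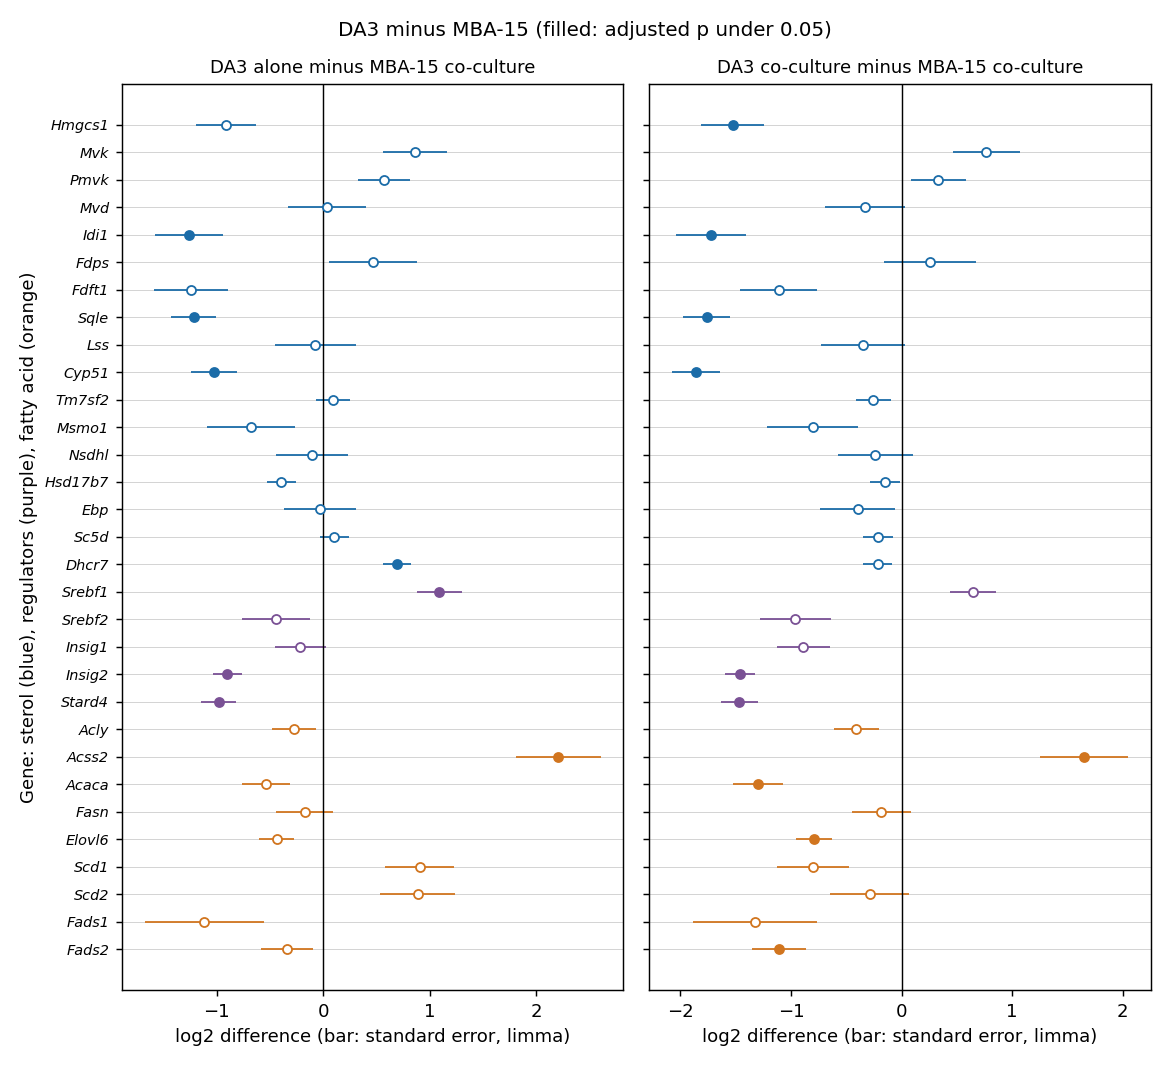
Points give the log2 difference of each gene, DA3 alone minus MBA-15 co-culture on the left and DA3 co-culture minus MBA-15 co-culture on the right, and bars give 1 standard error from limma. Filled points passed an adjusted p of 0.05: 3 higher and 5 lower on the left, 1 higher and 9 lower on the right.

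The sample descriptions also give an assay number, whose meaning is not stated, and numbers 3 and 4 each hold an array of both groups. Within them the difference was -1.14 and -1.29 for Sqle, -1.02 and -0.78 for Insig2, 1.27 and 0.91 for Srebf1 and 1.71 and 2.71 for Acss2, so that the signs were kept, as they were for the other 4 genes. The calls themselves rest on few arrays. Without array 1 of DA3 alone, 0 members passed as higher and 1 as lower, and without array 2 it was 0 and 0, while calls over all genes fell from 1290 and 1213 to 451 and 544, and to 508 and 560. Leaving out an array of MBA-15 co-culture also changed how many members passed. With 1 array in a group, a change in the members cannot be told from a change in how readily any gene passed. Of 16 alternative analyses, Insig2 passed in 14, Sqle, Stard4, Srebf1 and Acss2 in 13 each, Cyp51 and Dhcr7 in 11 and Idi1 in 6, with the sign kept in all. The adjusted p of Idi1 ranged from 0.0204 to 0.259, and it missed the threshold when its several probe sets were averaged. With arrays centred on their medians, the median over all genes moved from 0.00 to 0.11 and the share of calls that were higher in DA3 from 51.5% to 61.7%, while the members gave 3 higher and 4 lower.

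The 2 fractions of the co-culture share the culture type, and here the pathway stood lower in the DA3 fraction for more genes. DA3 co-culture was below MBA-15 co-culture in 9 of the 31 members, with log2 differences from -1.86 to -0.79: Hmgcs1, Idi1, Sqle and Cyp51 of the sterol arm, Insig2 and Stard4, and Acaca, Elovl6 and Fads2 of the fatty acid arm. Acss2 was the only member higher in DA3. The 9 are 29% of the members, against 8.28% of all genes and 14% of the genes at the level of the members. The 1 higher is 3.23%, against 4.48% and 7.5%. The arm medians were -0.33 for sterol, -0.96 for the regulators and -0.79 for fatty acid enzymes, where all genes had 0.07 and the genes at the level of the members -0.11. Without array 1 of MBA-15 co-culture the regulators had -0.55 and the fatty acid enzymes -0.42, and without array 2 the regulators had -1.45. The sterol median was -0.20 without array 1 of DA3 co-culture and -0.59 without array 2, and -0.50 without array 2 of MBA-15 co-culture.

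On the DA3 co-culture arrays Hmgcs1 read 6.47 and 6.68, both below either MBA-15 co-culture array (log2 difference -1.53 (SE 0.28, adjusted p = 0.0173)). Idi1 read 5.97 and 6.72 (-1.73 (SE 0.32, adjusted p = 0.0167)). For Sqle the levels were 6.85 and 6.72, 3.39-fold below the MBA-15 fraction (-1.76 (SE 0.21, adjusted p = 0.00363)). Thus the 3 enzymes, from the earliest measured step to the oxidation of squalene, lay lower on both arrays. Cyp51, at 5.76 and 6.04, had the largest difference of the set, 3.62-fold (-1.86 (SE 0.22, adjusted p = 0.00335)). Fdft1, between Idi1 and Sqle in the pathway, did not pass, and its DA3 co-culture arrays lay far apart at 6.61 and 7.61 (-1.11 (SE 0.35, adjusted p = 0.091)). Mvk and Fdps had means above those of MBA-15 co-culture without passing, at 5.65 and 6.17 (0.77 (SE 0.30, adjusted p = 0.159)) and 7.22 and 7.65 (0.26 (SE 0.41, adjusted p = 0.723)). Dhcr7, higher in DA3 alone, read 5.90 and 5.73 here and lay a little below MBA-15 co-culture (-0.21 (SE 0.13, adjusted p = 0.347)).

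Insig2 at 7.04 and 6.93 and Stard4 at 5.25 and 5.48 were 2.74-fold and 2.76-fold lower in the DA3 fraction. The log2 difference was -1.46 (SE 0.14, adjusted p = 0.00148) for Insig2 and -1.47 (SE 0.17, adjusted p = 0.00311) for Stard4. The remaining regulators did not pass. Srebf1, which makes the SREBP of fatty acid synthesis, read 7.20 and 6.83 (0.65 (SE 0.21, adjusted p = 0.102)), Srebf2 7.33 and 7.05 (-0.96 (SE 0.32, adjusted p = 0.109)) and Insig1 7.97 and 8.26 (-0.89 (SE 0.24, adjusted p = 0.0612)). Of the 5, Srebf1 alone had a difference above 0.

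Acaca carboxylates acetyl-CoA, the committed step of fatty acid synthesis. It read 7.04 and 6.46 in DA3 co-culture against 7.98 and 8.10 in MBA-15 co-culture (-1.29 (SE 0.22, adjusted p = 0.0135)) and 7.70 and 7.32 in DA3 alone. Elovl6 lengthens the chains that fatty acid synthase releases. Its levels were 6.03 and 6.17 in DA3 co-culture, 6.92 and 6.86 in MBA-15 co-culture (-0.79 (SE 0.17, adjusted p = 0.0267)) and 6.67 and 6.24 in DA3 alone. Fads2 makes the opening desaturation of polyunsaturated fatty acids, and it read 7.79 and 7.36, 8.94 and 8.42 (-1.11 (SE 0.24, adjusted p = 0.0315)) and 8.40 and 8.29 in that order. For these 3 enzymes both co-culture DA3 arrays lay below every MBA-15 co-culture array. Acss2, at 6.30 and 6.86, was 3.14-fold above the MBA-15 fraction (1.65 (SE 0.39, adjusted p = 0.0409)). Scd1 read 7.80 and 7.59 (-0.80 (SE 0.33, adjusted p = 0.169)), Scd2 10.49 and 9.98 (-0.29 (SE 0.36, adjusted p = 0.638)) and Fads1 7.53 and 6.79 (-1.32 (SE 0.56, adjusted p = 0.186)), and none of the 3 passed.

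**Figure D3:**
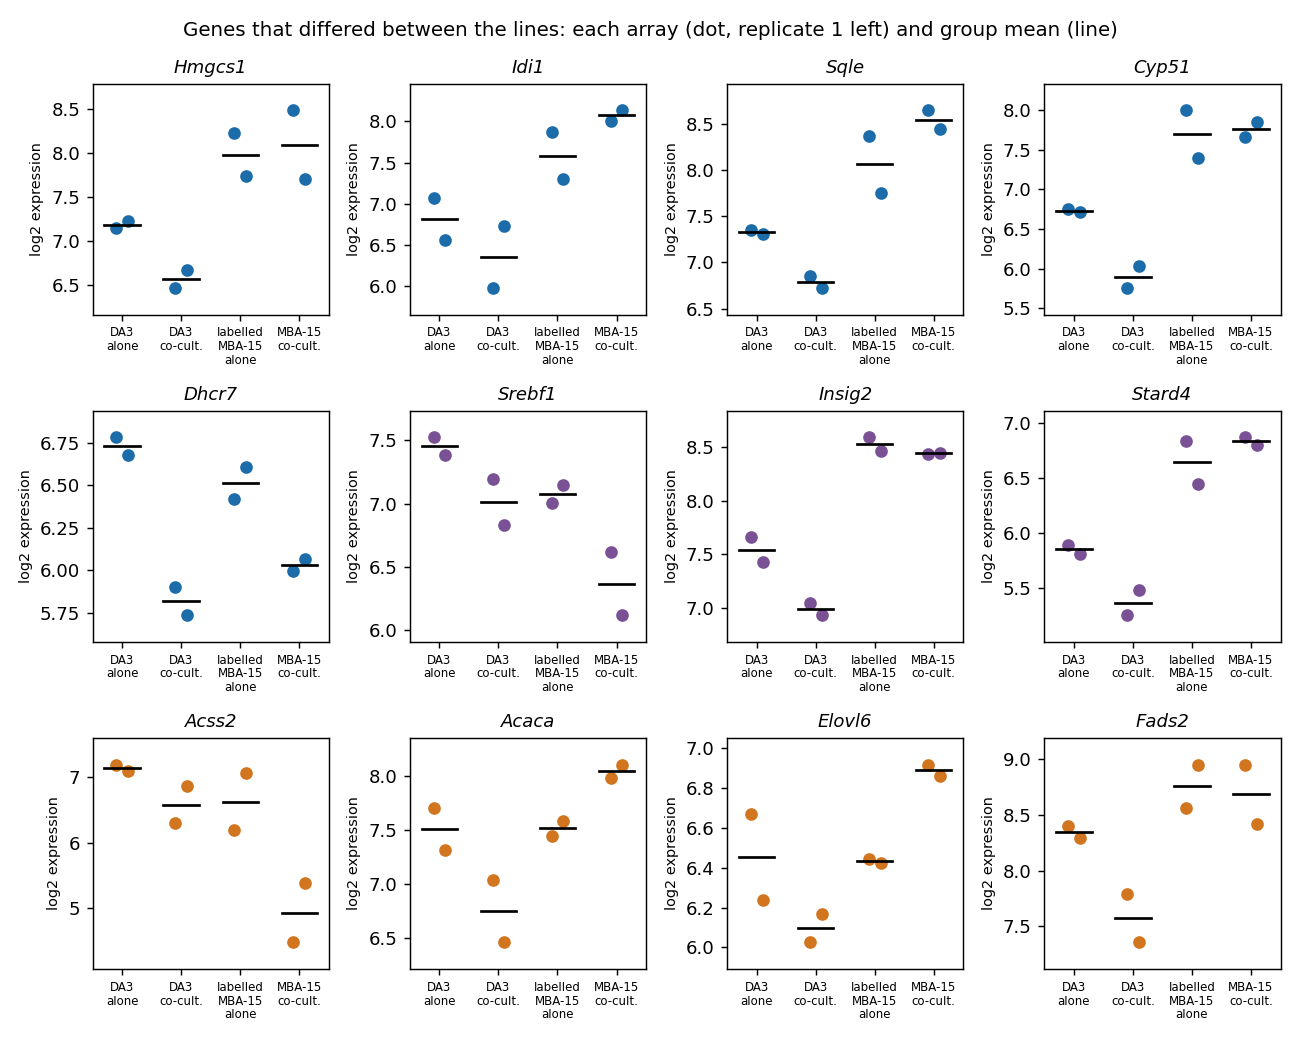
The 12 genes that passed in either comparison of the lines, 1 panel each, with the log2 level of every array as a dot, replicate 1 on the left, and the group mean as a line. Blue marks sterol enzymes, purple regulators and carriers, and orange fatty acid enzymes, and each panel has its own axis, which does not start at 0. Hmgcs1, Idi1, Sqle, Cyp51, Insig2, Stard4 and, narrowly, Fads2 lie higher on all 4 arrays of MBA-15 or labelled MBA-15 alone than on any DA3 array. The share of all genes with this pattern was not counted.

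Both comparisons of the lines use the same MBA-15 co-culture arrays, so they are not independent. Of the 12 members called in either, 5 were lower and 1 higher in both, 4 were lower only with DA3 co-culture and 2 higher only with DA3 alone, and 19 members were called in neither. Sqle, Cyp51, Insig2 and Stard4 passed in all 16 alternatives between the fractions, with the highest adjusted p at 0.0252. The other members passed less widely: Hmgcs1, Idi1 and Acaca in 13, Fads2 and Acss2 in 9, and Elovl6 in 6 of 16. Within assay number 3, which holds 1 array of each fraction, the difference was -1.60 for Sqle, -2.09 for Cyp51, -1.07 for Acaca and -0.63 for Fads2. The arm medians there were -0.32 for sterol enzymes, -0.70 for the regulators and -0.08 for fatty acid enzymes. Below 0 were 13 of 17, 4 of 5 and 6 of 9. Leaving out array 1 or array 2 of DA3 alone or of DA3 co-culture ended the call of Acss2. Repeated quantile normalization left 7 lower and 2 higher, against 11.5% and 9.59% of the genes at the level of the members, and moved the share of all calls that were higher in DA3 from 35.1% to 43.2%.

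In DA3 cells themselves, co-culture with MBA-15 went with levels below those of DA3 alone in 29 of the 31 genes, but no gene passed the test. The lowest adjusted p was 0.0997, for Dhcr7, and 10 members (32.3%) had an unadjusted p under 0.05 in limma, against 14.9% of all genes and 20.9% of those at the level of the members. The test called few genes at all, 0.01% of all genes as higher and 0.0301% as lower. Median changes were -0.32 for the sterol arm, -0.52 for the regulators and -0.56 for the fatty acid arm, beside 0.04 over all genes. The sterol median rests largely on array 1 of DA3 co-culture. Without it the median was -0.09, with 9 of the 17 enzymes below 0 and 8 above, and without array 2 it was -0.55. All 5 regulators and all 9 fatty acid enzymes had changes below 0. Fdft1 and Hsd17b7 were the exceptions, at 0.13 and 0.24.

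Array by array, 19 of the 31 genes had both co-culture arrays below both DA3 alone arrays, and 1, Hsd17b7, had both above. Over all genes 22.4% had arrays that did not overlap and were lower in co-culture, and 31.4% that were higher. The background differs with level, however. Among genes in the members' range of mean level, 38.5% did not overlap and were lower, 71.3% had a change below 0 and the median change was -0.23, where the members had -0.37. The DA3 co-culture arrays had the narrowest interquartile ranges of log2 levels, 2.33 and 2.15, against 2.62 and 2.58 in DA3 alone. After quantile normalization was repeated, 23 of 31 members had a change below 0, with a median of -0.26, and 58.7% of the genes in that range, with a median of -0.08.

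Scd1 had the largest change. Its log2 level was 9.17 and 9.64 without and 7.80 and 7.59 with co-culture, a ratio of 3.27-fold on the linear scale (log2 change -1.71 (SE 0.33, adjusted p = 0.147), 95% interval -2.49 to -0.93). Scd2 read 11.32 and 11.50 and 10.49 and 9.98, a change of -1.18 (SE 0.36, adjusted p = 0.254). For both desaturases every co-culture array lay below every array of DA3 alone. Fads2 followed with 8.40 and 8.29 and 7.79 and 7.36 (-0.77 (SE 0.24, adjusted p = 0.262)), Acaca with -0.76 (SE 0.22, adjusted p = 0.247) and Acss2 with -0.56 (SE 0.39, adjusted p = 0.508), and in these 3 the groups did not overlap either. Fasn, fatty acid synthase, had a change of -0.01 (SE 0.27), and Acly, which makes acetyl-CoA from citrate, one of -0.14 (SE 0.20). These 2 enzymes, at the core of the pathway, had the smallest changes of the arm.

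Of the sterol enzymes, Dhcr7 had the largest change. It read 6.78 and 6.68 in DA3 alone and 5.90 and 5.73 in co-culture (-0.91 (SE 0.13, adjusted p = 0.0997), 95% interval -1.23 to -0.59). Cyp51 read 6.75 and 6.72 and 5.76 and 6.04 (-0.83 (SE 0.22, adjusted p = 0.212)), and Hmgcs1 7.15 and 7.23 and 6.47 and 6.68 (-0.62 (SE 0.28, adjusted p = 0.369)). In these 3 genes, at the earliest measured step, the middle and the end of the pathway, no array of one group reached the other. Sqle had a change of -0.55 (SE 0.21, adjusted p = 0.311). The sterol enzymes that are not among the named ones above ran from -0.37 for Ebp to 0.24 for Hsd17b7, and Idi1, Fdps and Mvk at -0.47, -0.21 and -0.09 had overlapping arrays. In 14 of the 17 sterol enzymes array 1 of DA3 co-culture was lower than array 2, with a median gap of -0.43.

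All 5 regulators had both co-culture arrays below both arrays of DA3 alone. Insig1, whose own transcript rises with SREBP activity in many cells, read 8.70 and 8.88 in DA3 alone and 7.97 and 8.26 in co-culture (-0.67 (SE 0.24, adjusted p = 0.294)). Insig2 had a change of -0.56 (SE 0.14, adjusted p = 0.199) and Stard4 one of -0.48 (SE 0.17, adjusted p = 0.286). Srebf1 read 7.52 and 7.39 and 7.20 and 6.83 (-0.44 (SE 0.21, adjusted p = 0.381)), and Srebf2 7.69 and 7.72 and 7.33 and 7.05 (-0.52 (SE 0.32, adjusted p = 0.469)). The regulators were thus the arm with the least overlap, in a comparison where 38.5% of the genes at the level of the members did not overlap and were lower. None of the 5 passed.

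**Figure D4:**
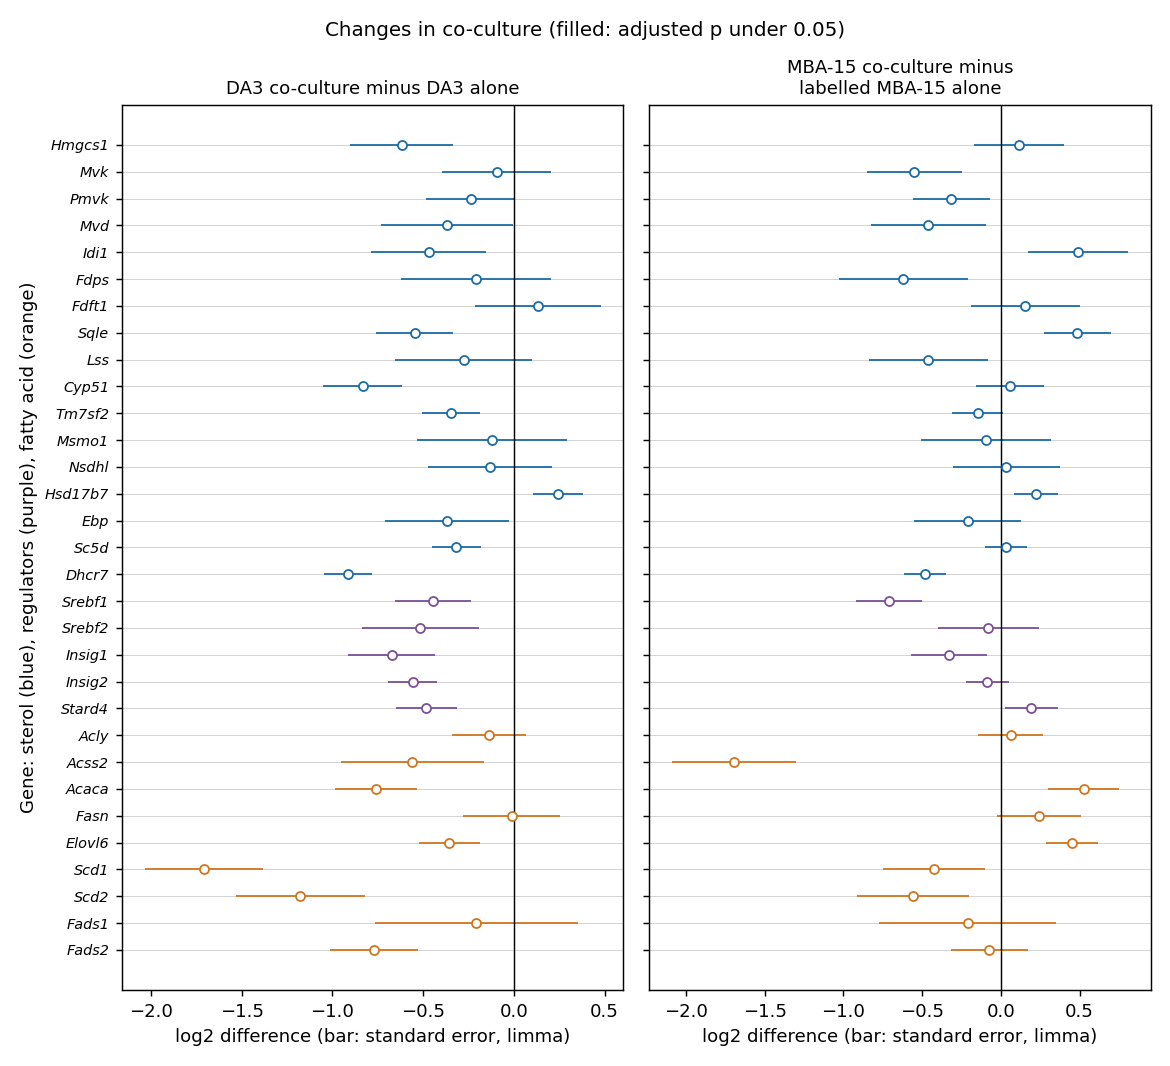
Points give the log2 change of each gene in co-culture and bars 1 standard error from limma, for DA3 on the left and for MBA-15, against the arrays labelled MBA-15 alone, on the right. All points are open since no gene passed an adjusted p of 0.05, and 29 of 31 lie left of 0 for DA3 and 18 of 31 for MBA-15.

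Both DA3 groups have an array in assay number 3 alone, and there 27 of 31 members were below 0, with a median of -0.47. This pair uses array 1 of DA3 co-culture, on which the sterol median largely rests, and so is not separate from it. With all arrays, 71.3% of the genes at the level of the members were below 0. With 1 array left out, members below 0 numbered 23 without array 1 of DA3 co-culture and 27 to 29 otherwise. Stromal markers moved along with these changes: 9 of 12 (75%) had both co-culture arrays above both arrays of DA3 alone, against 31.4% of all genes. Their median change was 0.81, and their part in the changes of the lipid genes was not tested. Of the 12 epithelial markers 9 had a change below 0, with a median of -0.33, and 0 markers of either list passed.

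In MBA-15, the co-culture arrays and those labelled MBA-15 alone did not differ in any lipid gene that passed the test. Of the 31 members 18 had changes below 0 and 13 above, and 4 (12.9%) had an unadjusted p under 0.05 in limma, against 9.8% of all genes and 15.7% of those at the level of the members. Of the latter 58.1% had changes below 0, the same share as the members. Over all genes 0.0752% passed as higher and 0.772% as lower. Arm medians were -0.09 for sterol enzymes, -0.09 for the regulators and -0.07 for fatty acid enzymes, beside 0.04 over all genes and -0.08 over the genes at the level of the members. With 1 array left out they ranged from -0.27 to 0.11, from -0.61 to 0.01 and from -0.33 to 0.33, so that none kept its sign. The arrays did not overlap in 6 members that were lower in co-culture (19.4%) and in 5 that were higher (16.1%), against 16.1% and 22.3% of all genes and 25.9% and 14% of the genes at the level of the members. All 12 epithelial markers passed as lower in co-culture, with changes from -4.27 to -2.60, and Zeb1 and Zeb2 of the 12 stromal markers as higher, by 0.98 and 1.20. The part of these transcripts in the lipid genes' changes was not tested.

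Acss2 stood apart. It read 4.48 and 5.38 in MBA-15 co-culture, below the 6.19 and 7.06 of the arrays labelled MBA-15 alone, a change of -1.69 (SE 0.39, adjusted p = 0.168). Srebf1 (7.002 and 7.15 against 6.61 and 6.12) had a change of -0.71 (SE 0.21, adjusted p = 0.282) and Dhcr7 (6.42 and 6.61 against 5.997 and 6.07) one of -0.48 (SE 0.13, adjusted p = 0.249). All 3 had passed as higher in DA3 alone when the lines were compared, but both comparisons use the same MBA-15 co-culture arrays, so that low values there enter both. In the opposite direction, Acaca read 7.45 and 7.58 on the arrays labelled alone (0.53 (SE 0.22, adjusted p = 0.521)), Idi1 7.87 and 7.30 (0.49 (SE 0.32, adjusted p = 0.712)), Sqle 8.37 and 7.76 (0.49 (SE 0.21, adjusted p = 0.532)) and Elovl6 6.44 and 6.42 (0.45 (SE 0.17, adjusted p = 0.422)). In these 4 both MBA-15 co-culture arrays were the higher ones. Of the 8 members that passed between DA3 alone and MBA-15 co-culture, both arrays labelled MBA-15 alone lay between the 2 group means for 5, 1 array for Cyp51 and Stard4, and 0 for Insig2. Over all 31 members both arrays lay between for 8, 1 array for 12 and 0 for 11. Genes that passed have a wide gap between these means, which favours values in between, and the share over all genes was not counted.

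Insig2 read 8.59 and 8.46 on the arrays with that label and had a change of -0.09 (SE 0.14, adjusted p = 0.885) with a 95% interval of -0.41 to 0.24. Cyp51 read 7.995 and 7.40 (0.06 (SE 0.22)), Stard4 6.84 and 6.45 (0.19 (SE 0.17)) and Hmgcs1 8.23 and 7.74 (0.11 (SE 0.28)). These sterol genes were high on all 4 arrays labelled as MBA-15. The desaturases were less even. Scd1 read 8.50 and 9.35 (-0.43 (SE 0.33)), Scd2 10.70 and 11.46 (-0.56 (SE 0.36)), Fads1 8.55 and 8.85 (-0.21 (SE 0.56)) and Fads2 8.56 and 8.95 (-0.07 (SE 0.24)). For Scd1, Scd2 and Fads2 array 2 was the higher of those labelled alone and array 1 the higher in MBA-15 co-culture, so the groups overlapped.

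Mvk read 5.83 and 5.56 (-0.55 (SE 0.30)), Fdps 8.12 and 7.47 (-0.62 (SE 0.41)) and Fdft1 8.38 and 7.76 (0.16 (SE 0.35)). Of these Mvk alone had groups that did not overlap. Srebf2, at 8.29 and 8.17, had a change of -0.08 (SE 0.32), and Insig1, at 9.23 and 9.44, one of -0.33 (SE 0.24). On array 1 labelled MBA-15 alone 14 of the 17 sterol enzymes were higher than on array 2, with a median gap of 0.50. Within assay number 4 the fatty acid arm had 8 of 9 members above 0 with a median of 0.38, and within assay number 3 it had 6 of 9 below 0 with a median of -0.53. Its direction in MBA-15 thus turned from one pair of arrays to the other.

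The change in co-culture was then compared between the lines. Its difference, DA3 minus MBA-15, passed for 0 of 31 members in limma, with 7 (22.6%) at an unadjusted p under 0.05, against 6.32% of all genes and 11% of those at the level of the members, and over all genes for 0.0602% as higher and 0% as lower. The largest differences were -1.29 (SE 0.32, adjusted p = 0.438) for Acaca and -1.28 (SE 0.46, adjusted p = 0.691) for Scd1. Acss2 had the largest in the other direction, at 1.13 (SE 0.56, adjusted p = 0.869). The sterol arm had a median of -0.16, the regulators -0.44 and the fatty acid arm -0.62. All genes had 0.02 and the genes at the level of the members -0.10, so the sterol median lay near the latter. Over 16 alternatives the sterol median ranged from -0.461 to 0.297 and kept its sign in 14. The regulators ranged from -0.679 to -0.01, and the fatty acid arm from -0.898 to 0.143 with the sign kept in 15. These differences rest on arrays that carried epithelial transcripts, those labelled MBA-15 alone.

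Other genes of sterol and lipid handling were counted by list. Of 8 measured genes around SREBP activation and the liver X receptors, which sense oxysterols and drive sterol export, 1 passed as higher and 2 as lower in DA3 than in MBA-15 co-culture, for DA3 alone and for DA3 co-culture alike. These are 12.5% and 25% of the list. Over all genes the shares were 6.47% and 6.08% with DA3 alone and 4.48% and 8.28% with DA3 co-culture. Nr1h3, the liver X receptor alpha, was higher in DA3, at 5.000 and 4.86 in DA3 alone against 3.76 and 3.85 (1.13 (SE 0.16, adjusted p = 0.00609)), its MBA-15 co-culture arrays reading below their medians of 4.63 and 4.58. Abca1, the exporter of cholesterol, read 3.88 and 4.01 in DA3 alone and 6.78 and 6.27 in MBA-15 co-culture and was lower in DA3 (-2.59 (SE 0.24, adjusted p = 0.00111)), where it lay below the array medians of 4.501 and 4.479. For levels this dim the direction was measured, and the size of the difference is uncertain. Mylip, a ubiquitin ligase that takes lipoprotein receptors off the surface, read 4.85 and 4.82 against 7.21 and 5.96 (-1.76 (SE 0.38, adjusted p = 0.029)). With DA3 co-culture the differences were 0.99 (SE 0.16, adjusted p = 0.0112), -2.42 (SE 0.24, adjusted p = 0.00183) and -1.84 (SE 0.38, adjusted p = 0.0258) for the 3 genes. Abca1 and Mylip are known targets of the liver X receptors, but the list did not run 1 way. With DA3 alone 3 of its genes were above 0 and 5 below. Among those that did not pass, Lpcat3 had 0.83 (SE 0.26, adjusted p = 0.0969), Abcg1 -0.02 (SE 0.17, adjusted p = 0.977) and Pltp -1.41 (SE 0.54, adjusted p = 0.168). The activity of the receptors was not tested.

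Of 8 measured genes of sterol uptake and trafficking, Npc2, which hands cholesterol out of lysosomes, was lower in DA3 in both comparisons (-1.01 (SE 0.24, adjusted p = 0.0379) with DA3 alone and -1.26 (SE 0.24, adjusted p = 0.0177) with DA3 co-culture). Lipa, the lysosomal lipase that frees cholesterol from its esters, read 6.33 and 6.66 in DA3 co-culture and 7.85 and 8.54 in MBA-15 co-culture and was lower in DA3 in that comparison (-1.70 (SE 0.32, adjusted p = 0.0188)). Of 11 measured lipogenic and lipin genes only Elovl5, an elongase of polyunsaturated fatty acids, passed, as higher in DA3 alone at 8.98 and 8.95 against 8.42 and 7.97 (0.77 (SE 0.18, adjusted p = 0.0372)). It is 9.09% of its list, near the 6.47% of all genes that passed as higher there. For uptake and trafficking the lower shares were 12.5% with DA3 alone and 25% with DA3 co-culture, against 6.08% and 8.28% of all genes. In co-culture against DA3 alone 0 genes of these lists passed, with 6 of 8 (75%), 7 of 8 (87.5%) and 9 of 11 (81.8%) below 0. Below 0 there were 44.6% of all genes and 71.3% of the genes at the level of the members. At an unadjusted p under 0.05 in limma the lists had 2, 1 and 4 genes. Beside these stood 14.9% of all genes and 20.9% of the genes at the level of the members. The largest changes were in Lpcat3, which remodels phospholipids (-0.96 (SE 0.26, adjusted p = 0.221)), and Lpin1, a phosphatidate phosphatase (-0.97 (SE 0.35, adjusted p = 0.293)), while Elovl5 had one of -0.85 (SE 0.18). Between MBA-15 co-culture and the arrays labelled MBA-15 alone 0 passed as well, with 1, 0 and 2 at an unadjusted p under 0.05 in limma, beside 9.8% over all genes.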

How the data were processed

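RNA of 8 cell fractions was hybridised to Affymetrix MoGene-1_0-st arrays, and groups came from the sample titles. The authors deposited log2 expression values per probe set, for which the submitters' processing notes name RMA and Partek 6.5. Their parameters are not given in the sources used here. The log2 scale was read from the range of the values and from RMA, and each value is relative to the other genes of its array. Array medians lay between 4.479 and 4.642.

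The platform annotation gave 1 symbol for 21789 of 35556 probe sets and several for 1621, and it did not list 12146, which are unnamed here. Through Entrez identifiers 21698 were found in RefSeq tables of GRCm38.p6, and 0 symbols changed. The probe set with the highest mean was kept for each gene, with no filter on dim genes, which left 19938 genes. Acaca, Fdft1 and Idi1 had several.

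Comparisons were contrasts of 4 group means over all 8 arrays in limma 3.58.1 with R 4.3.3 (lmFit and eBayes, 4 residual and 2.6 prior degrees of freedom). They were two-sided, adjusted after Benjamini and Hochberg over all genes, at a threshold of 0.05. Errors of a change are standard errors (SE) from limma. The fit was tested on simulated data. Arrays "did not overlap" where both arrays of a group lay above both of the other.

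The members and lists were chosen with earlier results of these data known. Arrays are printed for members that passed in any comparison, for the 3 largest changes of each arm in the comparisons of DA3, MBA-15 and the lines alone, and for the regulators. Alternatives were another normalization, another probe set rule, a filter on dim genes, a variance trend, fewer groups, blocks for replicate or assay number, and each array left out. Promoters were RefSeq's, of GRCm38.p6. Gene coordinates and proteins were not used here.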

Additional observations from a re-analysis of the deposited data

Results flagged for a closer look

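In 3 genes the arrays of both lines moved in opposite directions with co-culture, every DA3 co-culture array lying below every DA3 alone array and every MBA-15 co-culture array above those labelled MBA-15 alone. They are 9.68% of the members, against 2.17% of all genes and 3.67% of the genes at the level of the members, and 0 members showed the reverse pattern, against 1.14% and 1.17%. For Sqle, squalene epoxidase, the change in DA3 minus that in MBA-15 was -1.03 on the log2 scale (SE 0.298, limma, adjusted p = 0.539). For Acaca, acetyl-CoA carboxylase, it was -1.29 (SE 0.318, adjusted p = 0.438), and for Elovl6, a fatty acid elongase, -0.81 (SE 0.234, adjusted p = 0.547). None of the 3 differences passed the test, and all rest on the arrays labelled MBA-15 alone, which carry epithelial transcripts, whose part was not tested. Groups of 2 arrays were not searched for outlying arrays.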

How the results depend on the processing

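Changes of normalization, probe set, filter, variance model, groups fitted, blocks and single arrays reversed no single gene's call. The filter, the variance trend, fewer groups and arrays left out of other groups could not change a sign, so for them this was fixed beforehand. Without 1 array, members called between DA3 alone and MBA-15 co-culture ranged from 0 to 3 higher and from 0 to 6 lower, and between the co-culture fractions from 0 to 1 higher and from 6 to 9 lower. A group left with 1 array is assumed to vary like the others, and these counts also follow how readily any gene passed. The variance trend gave 3 lower members between the lines. Between the fractions, members higher in DA3 numbered 0 with the assay number as a block, 0 with only the groups compared and 2 with repeated quantile normalization, and lower members 4 with only the groups compared. Calls over all genes there fell from 894 and 1651 to 403 and 720 with only the groups compared, and higher calls to 590 with the assay block. Within assay number 3 the median of the fatty acid arm moved to -0.079 between the fractions and to 0.143 for the difference of the co-culture changes. The cause of these shifts was not tested. Replicate numbers were not taken as pairing the arrays, since no label says what they share. In 3 of the 4 groups replicate 1 has assay number 4 and replicate 2 has 3, and DA3 co-culture has 3 and 5. Over genes, deviations of same-numbered arrays correlated at 0.13, 0.21 and 0.01 among those 3 groups, and at 0.03, 0.31 and -0.41 between DA3 co-culture and DA3 alone, MBA-15 co-culture and the arrays labelled MBA-15 alone. With the replicate block 3 members were higher and 4 lower between the lines, 1 higher and 9 lower between the fractions and 0 in the other comparisons, and all-gene calls for the difference went from 12 to 0. Counts of members below 0 or without overlap in co-culture were alternatives added after seeing the data. Of 258 arm medians recomputed, 256 moved by less than the spread between replicates. Leaving out 1 of 2 arrays seldom moves a median beyond that spread, and some alternatives, such as the variance trend, cannot move it. The count therefore says little about stability. The fatty acid median in MBA-15 ranged from -0.529 to 0.382 and kept its sign in 15 of 18 alternatives. For the sterol arm in DA3 the median ranged from -0.553 to -0.094. No depth is recorded for arrays, and all 31 members passed the filter on dim genes.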
